A study of Oryza sativa with 12 samples.

Results

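The genes described here encode 2 parts of the Rubisco machinery of rice (Oryza sativa) leaf: 5 small subunits of the enzyme, RbcS1 to RbcS5, and the Rubisco activase OsRcaII. They are 6 of the 38978 genes in the deposited tables and were taken by gene identifier, as a family and its partner, not by their values. All 6 passed the filter on low values described below. Reads may be shared between the near-identical small subunit copies on chromosome 12, so the sum over copies is given beside each copy.

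Rubisco fixes carbon dioxide in the chloroplast stroma and is built from large subunits, encoded in the chloroplast by rbcL, and small subunits, encoded in the nucleus by the RbcS family. Rubisco activase uses ATP to pull inhibitory sugar phosphates out of the active site, and without it the enzyme loses activity. In rice leaf blades the chromosome 12 copies supply the small subunits, while RbcS1 is known as a copy of tissues other than the blade, and activase mRNA is known to follow a daily rhythm in several plants.

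RNA bound to polysomes, the mRNA carrying several ribosomes, was sequenced from leaves of 2 cultivars. APO is named tolerant and IR64 susceptible in the series title. Leaves came from control plants or from plants under 50% drought. This gives the 4 groups APO control, APO drought, IR64 control and IR64 drought, each with 3 libraries, 12 in all. No age, stage or hour of sampling is given in the sources used here. Nothing states that libraries of 1 group are from different plants, so p-values measure only the spread between these libraries, which may be technical. Total RNA and rbcL were not analysed here, so a change in polysomal mRNA cannot be told apart from a change in total mRNA.

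Levels are in nuclear-scaled TPM, the deposited TPM (a length-corrected share of a library's transcripts) divided by their sum over the 37849 nuclear gene loci of the library and multiplied by 1000000. TPM is corrected for transcript length, so levels can be set side by side between genes. The scaling was used because nuclear loci held from 1.21% to 83.4% of the deposited TPM. Read counts were not used here, so the depth of a whole library is known only as a relative index (coverage divided by FPKM), which ran from 0.608 to 7.34. Nuclear loci held 5.04% of TPM in APO control 3 and 1.21% in the library labelled APO drought 1, which are the 2 libraries below 10%. In the library labelled APO drought 1, moreover, 0 of 17 genes typical of APO lay above 1 nuclear-scaled TPM while 12 of 17 genes typical of IR64 did. APO control 3 had 17 of 17 APO-typical and 10 of 17 IR64-typical genes above that level, and the other libraries lay nearer to their labelled cultivar. No library was moved to another group, and results that rest on these 2 libraries are given with all 12 and with the other 10. The leaf label was checked with 5 light-harvesting genes, whose summed level ran from 1246 to 16233 nuclear-scaled TPM and which were above 0 in every group. Summed levels of 4 root genes did not pass 68.4.

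RbcS3 (Os12g0291100, chromosome 12, 11262587 to 11263636, plus strand) was the most abundant small subunit gene in all 12 libraries. It stood 13.6 kb before RbcS5 (Os12g0291400, 11277247 to 11278306, plus strand), which was followed after 42.1 kb by RbcS4 (Os12g0292400, 11320409 to 11322505, plus strand). These 3 copies lay within 59.9 kb, and RbcS2 (Os12g0274700, 10080505 to 10081588, minus strand) lay 1.18 Mb before them. RbcS1 (Os02g0152400) was at 2874951 to 2876254 on the plus strand of chromosome 2, and OsRcaII (Os11g0707000) at 28932977 to 28936031 on the minus strand of chromosome 11. Coordinates are those of the deposited tables, and their genome build is not given in the sources used here.

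Each chromosome 12 copy overlapped another annotated gene on the opposite strand, by 618 to 799 bp, whereas RbcS1 and OsRcaII overlapped none. Because the strandedness of the libraries is not given in the sources used here, reads of a copy and of its antisense partner cannot be told apart. The 4 antisense genes together held 0 to 10.4% of the level of copies and partners summed, with the highest share in IR64 control 3. The partner's share was largest for RbcS2, at 32.1% of the pair in IR64 control 3 and a median of 10.7%.

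The small subunit copies kept nearly 1 order of abundance. RbcS5 lay above RbcS2 in 10 of 12 libraries, and RbcS2 above RbcS4 and RbcS4 above RbcS1 in all 12. IR64 control 1 and 2 were the exceptions, with RbcS2 above RbcS5.

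RbcS3 stood at 6973, 9207 and 4032 nuclear-scaled TPM in APO control 1, 2 and 3, and at 2821, 198 and 165 in APO drought. It stood at 7278, 8416 and 6161 in IR64 control and at 5547, 3557 and 1818 in IR64 drought. Every drought library of a cultivar lay below every control library of that cultivar, and APO drought 2 and 3 lay far below the other 10 libraries. In rank among nuclear loci RbcS3 was at place 5 to 12 in every control library, at place 8 to 38 in IR64 drought, and at places 14, 705 and 955 in APO drought 1, 2 and 3.

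RbcS5 stood at 3495, 4330 and 1699 nuclear-scaled TPM in APO control and at 1004, 20.8 and 42.5 in APO drought 1, 2 and 3. It stood at 2063, 2111 and 3222 in IR64 control and at 1886, 972 and 988 in IR64 drought. The groups of each cultivar did not overlap, though in IR64 the nearest libraries, at 1886 and 2063, were close.

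RbcS2 stood at 880, 1749 and 509 nuclear-scaled TPM in APO control, and at 689, 16.0 and 17.0 in APO drought 1, 2 and 3. It stood at 3808, 4647 and 798 in IR64 control and at 720.5, 374 and 404 in IR64 drought. The APO groups overlapped, because the library labelled APO drought 1 lay above APO control 3. The IR64 groups did not overlap, and IR64 control 3 was much nearer to the drought libraries than to the other control libraries.

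RbcS4, the least abundant chromosome 12 copy, stood at 511, 604 and 323 nuclear-scaled TPM in APO control and at 261, 6.74 and 7.34 in APO drought 1, 2 and 3. It stood at 730.2, 788 and 423 in IR64 control and at 315, 153 and 111 in IR64 drought. Drought libraries lay below control libraries in both cultivars, with no overlap.

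RbcS1 was scarce everywhere. It stood at 4.97, 5.48 and 45.8 nuclear-scaled TPM in APO control and was listed at 0 in the library labelled APO drought 1, with 5.48 and 4.68 in APO drought 2 and 3. It stood at 4.34, 1.84 and 7.39 in IR64 control and at 2.55 and 3.64 in IR64 drought 1 and 2, and was listed at 0 in IR64 drought 3. Its highest value came from APO control 3, a library with a low nuclear share. In deposited TPM it stood at 2.31 there, below 4.24 in APO control 2 and 6.16 in IR64 control 3. In APO control 3 the shoot meristem genes summed to 21.3 and the root genes to 68.3 nuclear-scaled TPM. The root genes also summed to 68.4 and 57.4 in IR64 control 1 and 2, where RbcS1 was at 4.34 and 1.84. The root gene LSI1 made up nearly all of those IR64 sums (67.7 and 56.9), and LSI2, RCc3 and NRAMP5 were at most 0.466. In APO control 3 LSI1 was at 35.7, LSI2 at 17.1, RCc3 at 10.8 and NRAMP5 at 4.75. The part of these marker genes and of the scaling in the RbcS1 value was not tested. The groups overlapped in both cultivars.

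OsRcaII stood at 456, 780 and 495 nuclear-scaled TPM in APO control and at 884, 2025 and 853 in APO drought 1, 2 and 3. It stood at 42486, 56335 and 278 in IR64 control and at 1395, 384.5 and 230.0 in IR64 drought. IR64 control 1 and 2 lay far above the other 10 libraries, whereas IR64 control 3 lay below IR64 drought 1 and 2. In those 2 libraries OsRcaII was the most abundant nuclear locus and held 4.25 and 5.63% of nuclear TPM. Every APO drought library lay above every APO control library on this scale. In deposited TPM the APO groups overlapped, at 150, 604 and 24.9 in control and at 10.7, 269 and 652 in drought.

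**Figure D1:**
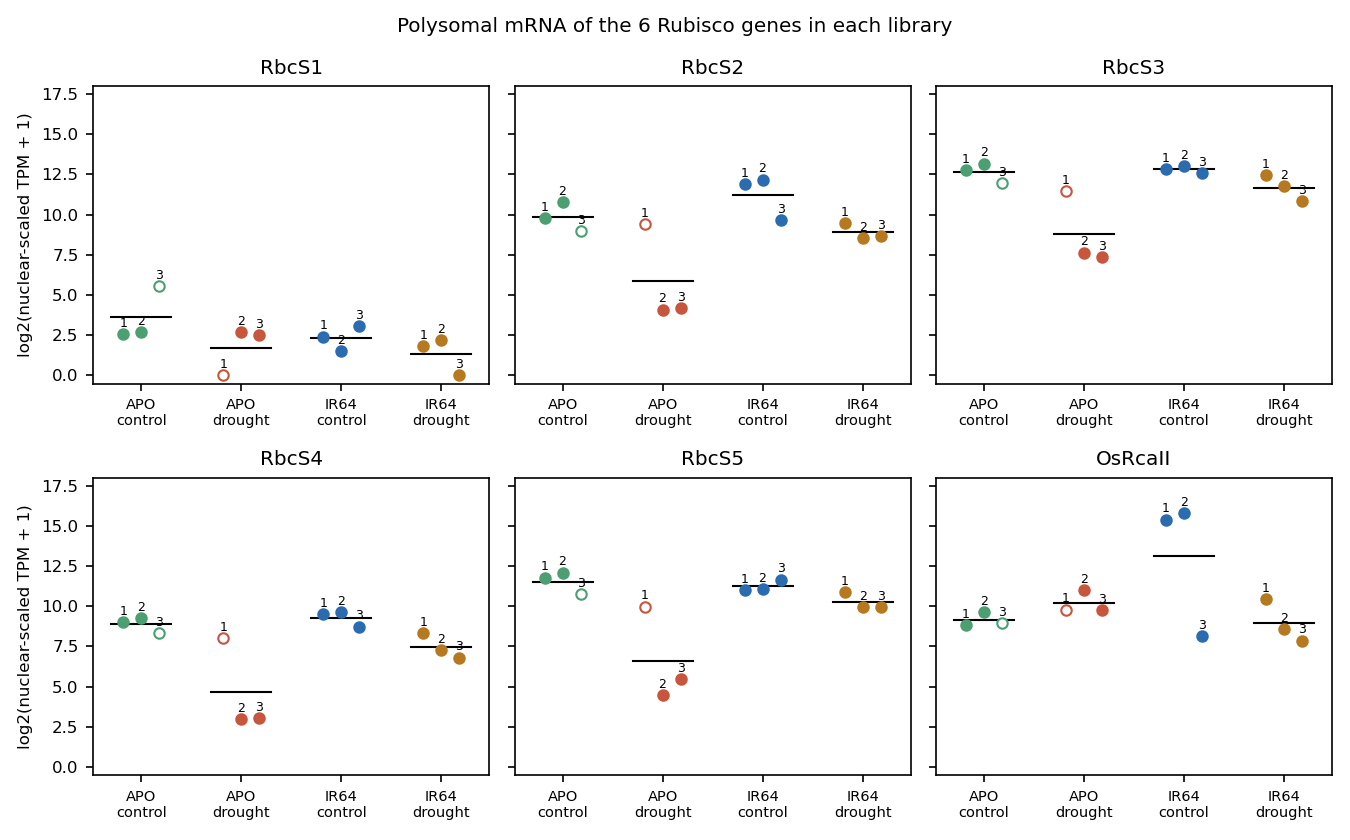
Levels of the 6 genes in each library, as log2(nuclear-scaled TPM + 1), by group; numbers are the replicate numbers, lines the mean of the 3 libraries, and open points the library labelled APO drought 1 and APO control 3. APO drought 2 and 3 sit far below all other libraries for RbcS2 to RbcS5, and IR64 control 1 and 2 far above all others for OsRcaII.

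The first comparison asks how drought changed polysomal mRNA of these genes in APO. RbcS3, RbcS4 and RbcS5 fell, each to a small part of its control level, and OsRcaII did not pass the test. RbcS3 went from 6737 ± 2596 to 1061 ± 1524 nuclear-scaled TPM, RbcS4 from 479 ± 143 to 91.5 ± 146, and RbcS5 from 3175 ± 1344 to 356 ± 562 (mean ± SD, n = 3 and 3). With limma on log2(nuclear-scaled TPM + 1) over 26192 genes, RbcS5 fell by 4.91 ± 1.01 log2 units (SE; adjusted p = 0.0203), RbcS4 by 4.18 ± 1.01 (adjusted p = 0.0412) and RbcS3 by 3.81 ± 0.84 (adjusted p = 0.0282). These are 30.0-fold, 18.1-fold and 14.1-fold lower means on that scale. Thus 3 of the 6 genes were called lower, against 2.08% of all genes tested, and 0 were called higher, against 0.943%. In bulk tissue, fewer cells of a type and less RNA per cell cannot be told apart.

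RbcS2 had a log2 difference of -3.95 ± 1.14 in APO, which missed the threshold (adjusted p = 0.0791), as did RbcS1 at -1.87 ± 1.05 (adjusted p = 0.348). Over all tested genes the median difference was -0.63, so the chromosome 12 copies lay well below the shift of the whole table. Groups that did not overlap, with drought lower, were seen for 3 of the 6 genes, against 14.9% of all genes tested.

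The size of the fall rested on which libraries were used. When the library labelled APO drought 1 and APO control 3 were both left out, the 4 chromosome 12 copies were called lower, against 7.6% of the 22812 genes tested, with 2 libraries on each side. RbcS5 then had a log2 difference of -6.98 ± 0.53 (adjusted p = 9.28e-05), RbcS2 of -6.15 ± 0.76 (adjusted p = 0.000676), RbcS4 of -6.11 ± 0.50 (adjusted p = 0.000112) and RbcS3 of -5.46 ± 0.65 (adjusted p = 0.000557). In the library labelled APO drought 1 the level of all 6 genes lay within the range of the IR64 drought libraries, and that of 1 of the 6 within the range of APO drought 2 and 3.

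The calls of the 12-library test were also lost when single libraries were left out. Leaving out APO control 1, APO control 2, APO drought 2 or APO drought 3 in turn left 0 of the 6 genes called, with adjusted p for RbcS5 of 0.0835, 0.0731, 0.0853 and 0.0543. Of all genes tested, 0.765, 1.21, 1.24 and 3.52% were called there. Without APO control 3 RbcS5 alone was called (adjusted p = 0.0481), against 1.79% of all genes. When the library labelled APO drought 1 was left out, the 4 chromosome 12 copies were called, against 11.6% of all genes. Leaving out any 1 of the 6 IR64 libraries, which share in the estimate of the spread, kept the calls of RbcS3 and RbcS5. RbcS4 then moved to an adjusted p of 0.0507 to 0.0651, with 1.66 to 3.16% of all genes called. The call of RbcS4 thus held in 1 of 12 such fits, that of RbcS3 in 7 and that of RbcS5 in 8. Each chromosome 12 copy kept its negative sign in all 22 alternatives run.

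OsRcaII had a log2 difference of 1.04 ± 1.45 in APO (adjusted p = 0.727), a sign that turned with deposited TPM (-0.07) and deposited FPKM (-0.29). Its means were 577 ± 177 in control and 1254 ± 668 in drought (SD, n = 3 and 3). The SE pools the spread of the 4 groups, and that of IR64 control was by far the widest for OsRcaII. The non-overlap of the APO groups in nuclear-scaled TPM, with drought higher, was shared by 4.69% of all genes tested. In deposited TPM the APO groups overlapped for OsRcaII.

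**Figure D2:**
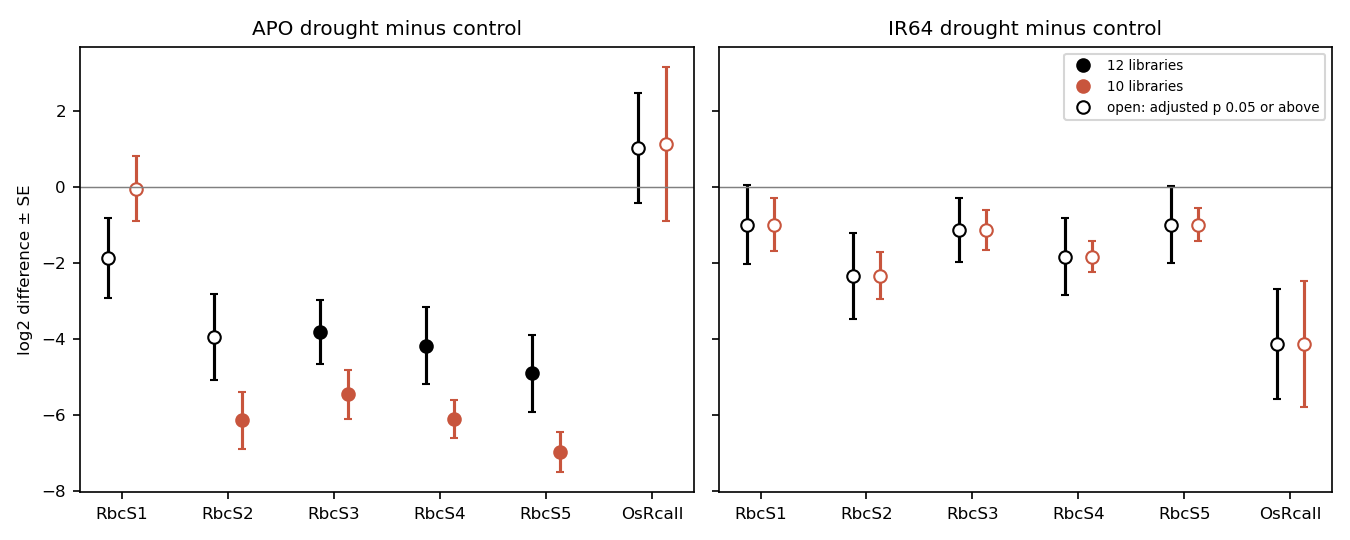
Log2 difference between drought and control for each gene in APO (left) and IR64 (right), with bars of 1 SE, from the fits of 12 and of 10 libraries; filled points have an adjusted p under 0.05. In APO the chromosome 12 copies lie between -3.81 and -4.91 with 12 libraries and between -5.46 and -6.98 with 10, while no point in IR64 is filled.

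The second comparison asks the same of IR64. The chromosome 12 copies were lower in every drought library than in every control library, but none of the 6 genes passed the test. RbcS3 had means of 7285 ± 1128 in control and 3641 ± 1866 in drought, RbcS5 of 2465 ± 656 and 1282 ± 523, RbcS4 of 647 ± 196 and 193 ± 108, and RbcS2 of 3084 ± 2024 and 499.5 ± 192 (SD, n = 3 and 3). Their log2 differences were -1.13 ± 0.84 for RbcS3, -0.98 ± 1.01 for RbcS5, -1.83 ± 1.01 for RbcS4 and -2.34 ± 1.14 for RbcS2 (limma, adjusted p = 0.72 or above). limma called 0 of 6 genes, against 0.00764% of all genes tested, and 1 of 6, OsRcaII, had an unadjusted p under 0.05, against 7.21%. Groups that did not overlap, with drought lower, were seen for 4 of the 6, against 9.09% of all genes.

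With 10 libraries 0 of the 6 genes were called in IR64, against 1.42% of all genes, and 4 had an unadjusted p under 0.05, against 18.4%. The smallest adjusted p was that of RbcS4 (-1.83 ± 0.41, adjusted p = 0.0594). Secondary wall genes of vascular tissue were looked at as well. The 2 that matched, OsCesA4 and CESA7, had summed levels (nuclear-scaled TPM) of 8.35, 81.5 and 76.8 in IR64 drought, all above the 7.18, 1.19 and 1.25 of IR64 control. Taken singly, OsCesA4 did not overlap between the IR64 groups, but CESA7 did (2.97 to 45.2 in drought, 0.2675 to 3.30 in control). The part of these genes in the RbcS values was not tested. All 6 IR64 libraries are in both fits, so the differences are the same. The estimate of the spread changed, and so did the genes tested and adjusted over (26192 with 12 libraries, 22812 with 10).

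OsRcaII in IR64 had means of 33033 ± 29199 in control and 670 ± 633 in drought (SD, n = 3 and 3), and a log2 difference of -4.13 ± 1.45 (adjusted p = 0.489). Without IR64 control 3 it was -6.61 (adjusted p = 0.00208), in a fit where 2.00% of all genes were called. IR64 control 3 alone differed from the drought mean by 0.84 log2 units in the other direction. Only the size is given, because no other control library remained. In deposited TPM, where 2.14% of genes were called, OsRcaII passed the threshold (-5.69 ± 1.74, adjusted p = 0.0496).

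IR64 control 1 and 2 also stood apart from IR64 control 3 outside this family. Over 26192 genes their Spearman correlation was 0.963 with each other, and 0.872 and 0.873 with IR64 control 3. CCA1, a clock gene whose mRNA peaks in the morning, had levels of 635.5 and 953 in IR64 control 1 and 2 but of 1.91 nuclear-scaled TPM in IR64 control 3. Its level was 3.44, 1.63 and 6.01 across APO control, 33.7, 82.6 and 55.5 across APO drought, and 28.2, 2.60 and 9.74 across IR64 drought. CCA1 was thus high in the same 2 libraries as OsRcaII. On the nuclear scale CCA1 was also higher in every APO drought than in every APO control library, as OsRcaII was. For OsRcaII that did not hold in deposited TPM. The 4 other clock genes looked at, GI, OsPRR1, OsPRR73 and OsPRR95, overlapped between the APO groups. GI, OsPRR1 and OsPRR95 were higher in every IR64 drought library than in every IR64 control library, with GI at 1152 to 1363 against 409 to 895 nuclear-scaled TPM. The part of sampling hour in the OsRcaII values was not tested.

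Set against each other under control conditions, the cultivars overlapped for all 6 genes and limma called 0 of 6, against 0.111% of all genes, with 1 of 6 at an unadjusted p under 0.05, against 7.59%. RbcS3 differed by -0.18 ± 0.84 log2 units between APO and IR64 (adjusted p = 0.940), and OsRcaII by -3.96 ± 1.45 (adjusted p = 0.574). With 10 libraries 0 of 6 were called, against 0.605%, and 0 had an unadjusted p under 0.05, against 10.5%.

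Under drought the cultivars again overlapped for all 6 genes with 12 libraries. limma called 0 of 6, against 0.176% of all genes, and 4 of 6 had an unadjusted p under 0.05, against 12%. The chromosome 12 copies had differences of -2.78 ± 1.01 (RbcS4) to -3.63 ± 1.01 (RbcS5) log2 units, APO minus IR64. With 10 libraries the 4 copies were called lower in APO, against 6.68% of all genes. The difference was then -5.31 ± 0.49 log2 units for RbcS5 (adjusted p = 0.000361) and -4.18 ± 0.59 for RbcS3 (adjusted p = 0.00216).

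Whether the drought effect itself differed between cultivars was tested as an interaction. With 12 libraries limma called 0 of 6 genes, against 0% of all genes, and 3 of 6 had an unadjusted p under 0.05, against 10.6%. These were RbcS3 (-2.68 ± 1.19), RbcS5 (-3.92 ± 1.43) and OsRcaII (5.17 ± 2.06), with adjusted p of 0.451, 0.370 and 0.400. With 10 libraries RbcS3 (-4.33 ± 0.84, adjusted p = 0.0218), RbcS4 (-4.28 ± 0.65, adjusted p = 0.0106) and RbcS5 (-6.00 ± 0.69, adjusted p = 0.00572) were called, against 3.65% of all genes called in that direction. RbcS2 lay at the threshold (-3.81 ± 0.98, adjusted p = 0.0505).

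The sum over the 5 small subunit genes was taken because reads may be shared between copies. The division of reads can still move a sum of length-corrected values, since the annotated spans ran from 1050 bp for RbcS3 to 2097 bp for RbcS4, and this was not tested. The sum was 11865, 15896 and 6609 nuclear-scaled TPM in APO control and 4774, 247 and 237 in APO drought 1, 2 and 3. It was 13883, 15964 and 10612 in IR64 control and 8471, 5060 and 3321 in IR64 drought. All 6 drought libraries lay below every control library of their cultivar. As a share of nuclear TPM the family was at 1.15 ± 0.47% in APO control and 0.175 ± 0.262% in APO drought, and at 1.35 ± 0.27% and 0.562 ± 0.262% in IR64 (SD, n = 3 and 3).

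Over both cultivars the summed level had a log2 difference of -2.69 between drought and control (exact two-sided permutation test within cultivar over 400 arrangements, p = 0.005, adjusted over 3 measures p = 0.015). That p is the smallest this test can give. The difference was -4.04 in APO and -1.35 in IR64, each with an exact p of 0.1, the smallest that 3 against 3 allow. With the antisense genes added it was -2.72 (adjusted p = 0.015). With 10 libraries it was -3.59 (exact permutation p = 0.0167, the smallest possible there, adjusted p = 0.05). Leaving out APO control 1, 2 or 3 gave an adjusted p of 0.105, 0.135 and 0.09.

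In order of mean summed level the groups stood as IR64 control, APO control, IR64 drought and APO drought. Libraries of each neighbouring pair in that order overlapped. For OsRcaII the order by mean log2 level was IR64 control (13.09), APO drought (10.17), APO control (9.13) and IR64 drought (8.96), where the last pair changed places by mean nuclear-scaled TPM. IR64 control and APO drought overlapped, as did APO control and IR64 drought. On the nuclear scale every library of APO drought lay above those of APO control.

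The make-up of the chromosome 12 sum also varied. RbcS3 held 57.9 to 61.4% of it in APO control and 59.1, 81.9 and 71.2% in APO drought 1, 2 and 3. RbcS5 held 29.5, 27.2 and 25.9% in APO control and 21.0, 8.62 and 18.3% in APO drought, so the APO groups did not overlap for RbcS5. The ratio of RbcS5 to RbcS3 was likewise lower in every APO drought library (0.356, 0.105 and 0.257) than in every APO control library (0.501, 0.470 and 0.422). In IR64 this ratio overlapped between control (0.251 to 0.523) and drought (0.273 to 0.543). The shares and ratios of APO drought 2 rest on low coverage. The deposited mean read depth per base there was 1.44 for RbcS2, 17.2 for RbcS3, 0.648 for RbcS4 and 2.00 for RbcS5.

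RbcS2 made up 27.4 and 29.1% of the chromosome 12 sum in IR64 control 1 and 2, and 6.65 to 14.4% in the other 10 libraries. These are the libraries in which OsRcaII and CCA1 were high. In the same libraries RbcS5 held 14.9 and 13.2%, against 30.4% in IR64 control 3. These shares rest on how the authors' software divided reads between near-identical copies, and the division was not tested.

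**Figure D3:**
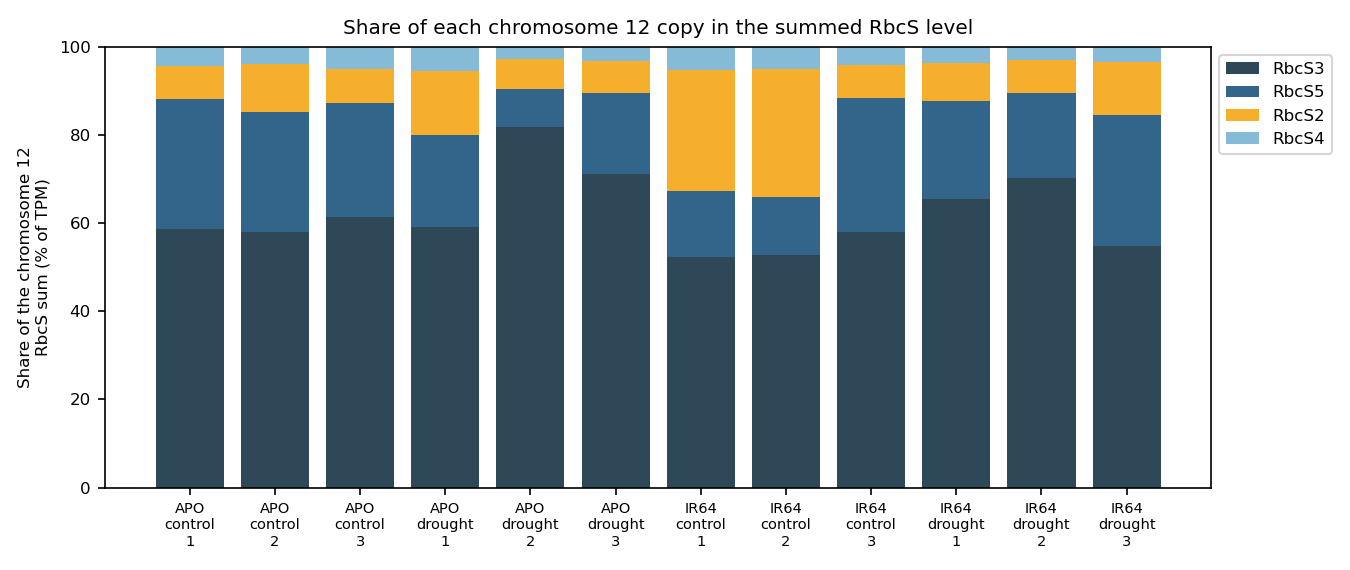
Share of each chromosome 12 copy in the summed chromosome 12 RbcS level (percent of TPM) in each library, 1 bar per library. RbcS3 holds over 52.4% in every library, RbcS2 widens to 27.4 and 29.1% in IR64 control 1 and 2, and RbcS5 narrows to 8.62% in APO drought 2.

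The balance of activase to small subunit mRNA varied widely between libraries. The level of OsRcaII per unit of summed RbcS was 0.0384, 0.0490 and 0.0749 in APO control and 0.185, 8.21 and 3.61 in APO drought 1, 2 and 3. It was 3.06, 3.53 and 0.0262 in IR64 control and 0.165, 0.0760 and 0.0693 in IR64 drought. OsRcaII exceeded the whole RbcS sum in 4 of 12 libraries, namely APO drought 2 and 3 and IR64 control 1 and 2. In the first pair the RbcS sum was low, and in the second OsRcaII was high.

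The ratio was higher in every APO drought than in every APO control library (log2 difference 5.08, exact p = 0.1) and overlapped in IR64 (-2.78, exact p = 0.4). Over both cultivars neither the ratio (1.15, exact permutation p = 0.55, adjusted p = 0.55) nor the OsRcaII level (-1.55, exact permutation p = 0.385, adjusted p = 0.55) passed. Without IR64 control 3 the ratio's difference was -0.01. Without IR64 control 1 and 2, a choice made after their values were seen that leaves 1 IR64 control library, it was 3.47 (exact permutation p = 0.0125, the smallest possible there, adjusted p = 0.0375).

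**Figure D4:**
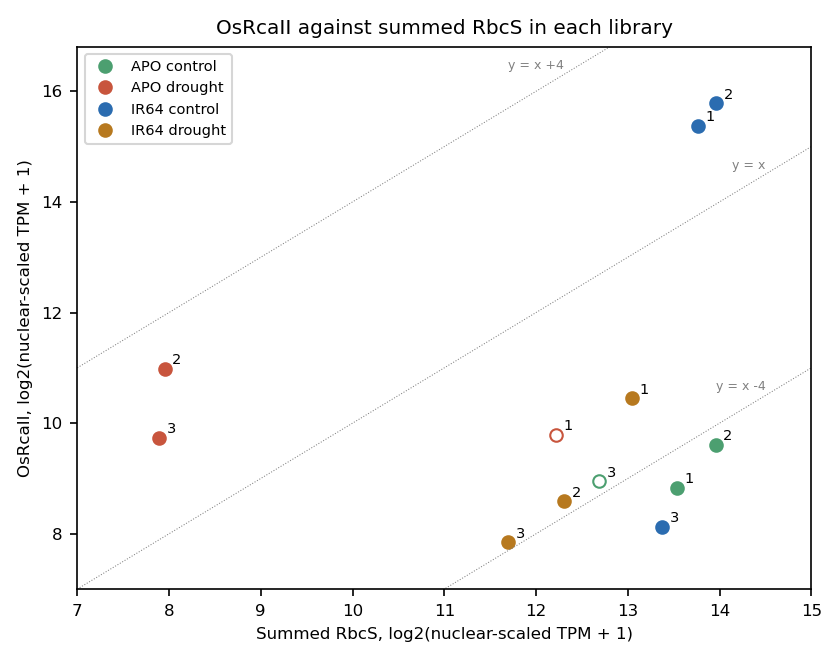
OsRcaII against the summed small subunit genes in each library, both as log2(nuclear-scaled TPM + 1), coloured by group and numbered by replicate; open points are the library labelled APO drought 1 and APO control 3, and dotted lines mark equal levels and 4 log2 units above and below. APO drought 2 and 3 lie at the left with RbcS sums of 247 and 237, and IR64 control 1 and 2 at the top with OsRcaII at 42486 and 56335.

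Across the 12 libraries the levels of the chromosome 12 copies had Pearson correlations of 0.914 to 0.989 with each other on the log2 scale, and of 0.0205 to 0.401 with OsRcaII. RbcS1 lay between -0.103 and 0.035 with the other members. These values describe libraries that fall into groups and share reads between copies, and carry no test.

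Among 4193 genes with a symbol and a mean of at least 10 nuclear-scaled TPM, those closest in pattern to the chromosome 12 sum over the 12 libraries were GLO4, a glycolate oxidase (Pearson 0.987), ALT-2, an alanine aminotransferase (0.985), PsaG, a photosystem I subunit (0.982), OsSET12 (0.979) and OsLFNR1, a leaf ferredoxin-NADP reductase (0.978). GLO4 stood at 912, 1727 and 772 nuclear-scaled TPM in APO control and at 536.5, 74.6 and 59.9 in APO drought 1, 2 and 3. In APO drought 2 and 3 it was thus lower than in all other libraries, as the RbcS copies were.

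Closest to OsRcaII were OsFRO7 (0.979), the aldolase gene Aldo (0.975), OsGLYI9 (0.974), OsSPS2 (0.968) and GBSSII, a granule-bound starch synthase (0.967). Aldo reached 19291 and 21774 nuclear-scaled TPM in the first pair of IR64 control libraries, against 136 to 726 in the other libraries. OsFRO7 reached 974 and 1226 in that pair, against 2.63 in IR64 control 3. All 5 were far higher in IR64 control 1 and 2 than in IR64 control 3, and that pair holds the highest values of each.

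The light-harvesting genes, other abundant mRNAs of the leaf, were set beside the family. In APO drought 2 and 3, 4 of the 5 lay below every APO control library, as the chromosome 12 copies did. The share of all genes that did so in those 2 libraries is not given, so this count is a description only. CAB2R was at 68.9 and 33.1 nuclear-scaled TPM there, against 888 to 1864 in APO control, and LHCB at 153 and 97.5, against 374 to 986. Lhca6 was at 0 and 2.21, against 21.7 to 164.5, and Lhcb1.1 at 4.17 and 1.33, against 9.40 to 19.5. CAB1R was the exception, at 1241 and 1112 against 511 to 2813, and made up 84.6 and 89.2% of the light-harvesting sum in those 2 libraries. With the library labelled APO drought 1 included, only Lhcb1.1 of the 5 did not overlap between the APO groups. It was lower in drought without overlap, as were 14.9% of all genes tested. In IR64 all 5 overlapped between control and drought, and their sum was 15149, 16233 and 5295 in control and 7926, 8182 and 4072 in drought. The part of cell composition in the RbcS result was not tested.

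The enzymes around Rubisco were described from a list of 23 genes, of which 22 were tested. The genes were matched by symbol or identifier to steps of the Calvin cycle and Rubisco assembly. Whether each product acts in the chloroplast was not checked, so forms of the same enzymes from the cytosol may be among them. In APO with 12 libraries 3 were called lower and 1 higher, against 2.08 and 0.943% of all genes, and the median log2 difference of the list was -1.19, beside -0.63 over all genes. OsAld-Y, a fructose-bisphosphate aldolase, fell by 5.45 ± 0.93 log2 units (adjusted p = 0.00794), from 325.5 ± 286 to 7.90 ± 7.06 nuclear-scaled TPM. OsTK, a transketolase, fell by 2.27 ± 0.49 (adjusted p = 0.026), and the phosphoglycerate kinase gene OsPGK3 by 2.98 ± 0.73 (adjusted p = 0.0438).

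The gene called higher was another phosphoglycerate kinase, PGK (Os06g0668200), which rose by 3.22 ± 0.56 log2 units (adjusted p = 0.00844), from 53.8 ± 21.5 to 586 ± 365 nuclear-scaled TPM. With 10 libraries 10 genes of the list were called lower and 1 higher, against 7.6 and 6.8% of all genes, with a median of -1.94 beside -0.24 over all genes. OsCFR (Os03g0267300) then had the smallest adjusted p of the list (-5.37 ± 0.57, adjusted p = 0.00032). OsPrk, the phosphoribulokinase that makes Rubisco's sugar substrate, fell by 3.66 ± 0.81 there (adjusted p = 0.0145) and had missed the threshold with 12 libraries (-2.74 ± 0.82, adjusted p = 0.0898).

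In IR64 limma called 0 of the 22 with 12 libraries, against 0.00764% of all genes, and 8 had an unadjusted p under 0.05, against 7.21%. The median was -0.52 beside 0.04 over all genes. With 10 libraries OsAld-Y was called lower (-2.61 ± 0.47, adjusted p = 0.026) and PGK higher (2.07 ± 0.35, adjusted p = 0.0208), against 0.307 and 1.12% of all genes. With 10 libraries in APO the largest fall of the list, OsCFR at -5.37, was smaller in value than those of the 4 chromosome 12 copies, whose smallest was -5.46 for RbcS3. With 12 libraries the order turned, with OsAld-Y at -5.45 and the largest fall of the copies at -4.91 for RbcS5. These differences between genes were not tested.

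**Figure D5:**
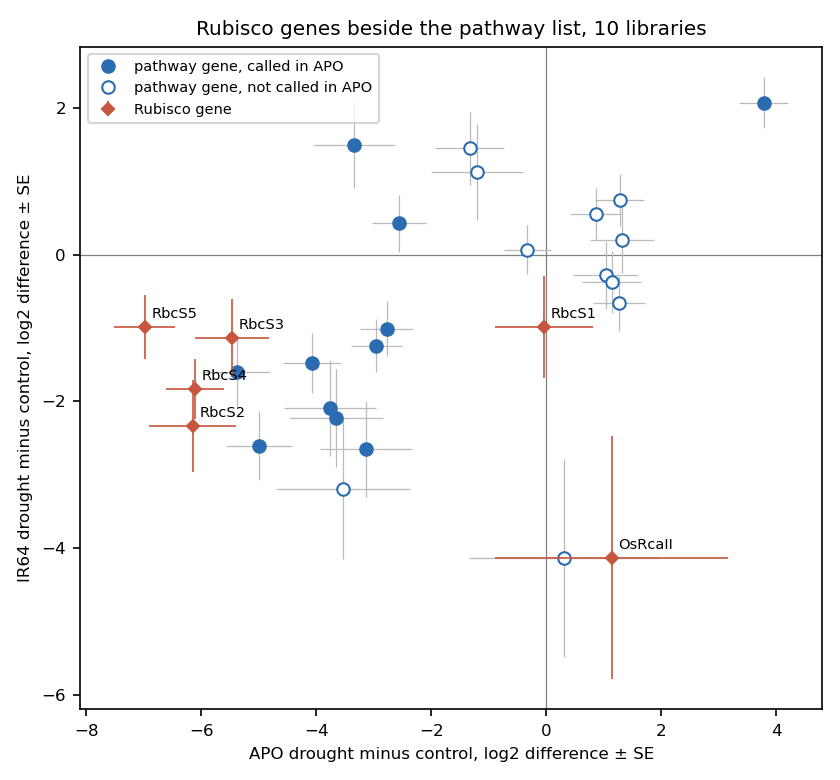
Log2 difference between drought and control in IR64 against that in APO for the 6 Rubisco genes (diamonds) and the 22 tested genes of the pathway list (circles, filled where called in APO), from the fit of 10 libraries, with bars of 1 SE. RbcS2 to RbcS5 lie at the far left between -5.46 and -6.98 in APO, PGK at the upper right, and OsRcaII and Aldo at the bottom near -4.13 in IR64.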

How the data were processed

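The authors deposited 1 StringTie gene table per library, with coverage (a signal, the mean read depth per base), FPKM and TPM values, per the file headers. Per the submitters' processing notes, the tools were StringTie 1.3.4, HISAT2 2.1.0 and DESeq2 2.11.38; their roles are not stated. The build, annotation and strandedness are not given in the sources used here, nor is how reads of near-identical copies were divided. The members, gene lists and tests were chosen with earlier results of these data known.

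Deposited TPM was rescaled over nuclear loci. limma 3.58.1 (R 4.3.3) was fitted with an intensity trend to log2(value + 1) of genes with a mean of at least 1, with 1 mean for each of 4 groups, two-sided tests and Benjamini-Hochberg adjustment over all genes. A call is an adjusted p under 0.05. The fit was tested on simulated data. Sums and ratios were compared with exact permutation tests within cultivar (Python 3.11.15, numpy 2.4.6, pandas 2.3.3; figures with matplotlib 3.10.9). A planned ratio to rbcL was not run, so p-values were adjusted over 3 measures.

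All 6 genes were described by rule. The genes most like them were the 5 with the highest Pearson correlation, and up to 4 called genes in each direction were named from the pathway list. OsPrk was named outside that rule, after its values were seen. Genes typical of a cultivar were chosen without the library being checked, with a minimum of 8 nuclear-scaled TPM in every library of 1 cultivar and an 8-fold gap to the other. Pathway genes were matched by symbol or gene identifier, and 16 matches that name other genes were left out. Of the marker lists, the 2 guard cell genes that matched summed to at most 52.4 nuclear-scaled TPM. Alternatives were 10 libraries, deposited TPM, deposited FPKM, median-of-ratios scaling, a pseudocount of 0.1, no filter, a minimum of 5, a replicate block, library weights, a fit limited to the groups compared and leaving out each library. Adding the antisense genes and leaving out IR64 control 1 and 2 were chosen after seeing the data.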

Additional observations from a re-analysis of the deposited data

How the results depend on the processing

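The number of the 6 genes called in APO drought against control was 3 in the report, where 3.03% of all genes were called. It was 0 with deposited TPM (0.46%), deposited FPKM (0.56%), no filter (1.41%) and only the groups compared (0.70%). It was 1 with a pseudocount of 0.1 (1.24%), and 4 with 10 libraries or library weights (14.4 and 22.0%). Leaving out single libraries gave 0 to 4 (0.765 to 11.6%). In IR64 the number, 0 in the report, was 1 with deposited TPM or FPKM (2.14 and 2.28% of all genes called), 3 with library weights (26.4%), and 0 to 1 with single libraries left out. Between cultivars it was 3 with library weights under control, where 48.3% of all genes were called (0 to 1 with single libraries left out). Under drought it was 4 with 10 libraries or library weights (12.3 and 8.0% of all genes; 0 to 4 with single libraries left out). For the difference of the drought effects it was 3 with 10 libraries, 5 with library weights (5.19 and 25.3% of all genes), and 0 to 3 with single libraries left out. The cause of these changes was not tested.

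The summed RbcS difference was -3.59 with 10 libraries (adjusted p = 0.05) and ranged from -3.41 to -2.33 with single libraries left out. Without IR64 control 1 and 2 the OsRcaII level turned to 0.94 and the ratio of OsRcaII to RbcS was 3.47 (adjusted p = 0.0375). This ratio ranged from -0.0138 to 1.96 with single libraries left out, the lowest without IR64 control 3. In APO OsRcaII turned to -0.0686 with deposited TPM and -0.29 with FPKM. Scaling moved the median difference of all genes in IR64 from 0.04 to -0.94 in deposited TPM and -0.20 with median-of-ratios, and in APO from -0.63 to -0.75 and -0.43.

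Deviations from the group mean correlated above 0.1 in 3 of 18 pairs of same-numbered libraries (correlations of -0.27 to 0.17). They did so in 12 of 36 pairs of differently numbered ones (-0.21 to 0.27). Equal numbers thus brought no excess. Because each group holds only 3 libraries, these correlations cannot decide if equal numbers mark paired samples. With a replicate block the genes called over the whole table in APO went from 793 to 587, the members called stayed at 3 in APO and 0 elsewhere, and the summed RbcS difference was -2.69 (exact p = 0.0312, adjusted p = 0.0938; smallest possible p = 0.0312). Read counts were not used, so no floor is given for values listed at 0. Some low values rest on a coverage below 1, as RbcS4 in APO drought 2 (0.648) and RbcS1 in IR64 drought 1 (0.303).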
